A study of Mus musculus with 2 samples.

Results

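Collagen chain genes were examined in cultured mouse ureters in which WNT secretion had been blocked. A gene was counted as a collagen chain gene when its name on the array had the form *Col*, a number, *a* and a second number, and 44 of the 29924 gene names on the array did. They comprise 11 chains of fibrillar collagens, 8 chains of basement membrane collagens and 25 other chains. Ureters of newborn (P0) wild-type NMRI mice were dissected, pooled and held on transwell membranes for 18 h. The medium contained 10% FCS and either 5 µM IWP-2 or its solvent DMSO at 1:1000. IWP-2 inhibits Porcupine, the acyltransferase without which WNT ligands are not released from the cells that make them. RNA of treated and control pools was hybridised together on 2 two-colour Agilent arrays, and each array gives its own ratio of IWP-2 over control. The pools were female in replicate 1, with IWP-2 in the red channel, and male in replicate 2, with IWP-2 in the green channel. Sex and dye orientation therefore cannot be told apart. The p-values and standard errors (SE) from limma rest on these 2 arrays and on a variance shared over all genes tested. They cover no further pools. The comparison asks how collagen expression responds when the ureter loses its WNT signals.

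Collagens are the main proteins of the extracellular matrix. Each chain carries a long stretch in which glycine recurs at a fixed short interval, and this repeat lets chains wind into a rigid helix. Fibrillar collagens (types I, II, III, V, XI, XXIV and XXVII) assemble into the fibres that give connective tissue its tensile strength, type IV forms the sheet-like network of basement membranes, and further types decorate fibrils, form beaded filaments or span the plasma membrane. In the ureter, fibrillar collagens are made by fibroblasts of the lamina propria (LP) and the outer adventitia and by smooth muscle cells (SMCs), and basement membranes lie under the urothelium and around SMCs and vessels.

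The glycine repeat is written into the nucleotide sequence as codons of the form GGN spaced 9 bases apart. Of the 69 collagen probes on the array, each of 60 bases, 3 (4.35%) held a run of at least 5 such codons, against 0.0507% of all probes. They are shown because the repeat is the feature that the members share, with the glycine codons of the run in capitals.
*Col15a1*, mm9 chr4:47283786-47283845, plus strand: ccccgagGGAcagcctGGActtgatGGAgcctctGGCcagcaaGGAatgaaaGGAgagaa
*Col16a1*, mm9 chr4:129756457-129756516, plus strand: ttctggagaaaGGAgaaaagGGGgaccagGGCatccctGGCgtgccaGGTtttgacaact
*Col25a1*, mm9 chr3:130270497-130270556, plus strand: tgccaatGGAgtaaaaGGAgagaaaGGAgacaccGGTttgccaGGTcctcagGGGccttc
None of these 3 was the probe used for its gene, since the brightest of a gene's probes was taken. The 44 probes used therefore do not sit in a run of this kind. The array design names mm9 as the build of these positions, and whether a probe lies in coding or untranslated sequence was not determined.

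The treatment was checked first. *Axin2*, a direct target of canonical WNT signaling, gave signals of 181 in the control and 42.1 with IWP-2 in replicate 1, and of 154 and 46.7 in replicate 2. Its log2 ratio was -1.92 ± 0.10 (mean ± SE, n = 2 arrays; limma adjusted p = 0.000637). *Porcn*, which encodes the protein that IWP-2 inhibits, had log2 ratios of -0.08 and 0.00. All 10 urothelial and all 8 smooth muscle markers had signals above 100, whereas 4 of 5 kidney epithelium markers and 4 of 6 cartilage markers lay at the signal floor of 15 in every channel.

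Among the collagen genes, 1 changed. *Col17a1* fell, *Col12a1* and *Col26a1* came nearest to it without passing the test, and all tested chains other than *Col17a1* and *Col12a1* stayed within 1.5-fold of the control in both arrays. For the test, a gene had to have a mean signal above 100 in the control or the IWP-2 channels, which held for 27 of the 44 collagen genes (8 fibrillar, 6 basement membrane and 13 other) and for 14334 genes in all. Of all genes tested, 0.907% were called lower and 0.391% higher by limma at an adjusted p under 0.05. Of the 27 collagen genes, 1 was called lower and 0 higher. At an unadjusted p under 0.05 the counts were 2 and 1, beside 957 and 899 of the 14334 genes tested. A fold criterion after the study's filter on control signal and fold change, applied here as at least 1.5-fold in both arrays with a control signal above 100, was met downwards by 0.363% and upwards by 0.0712% of all genes with such a control signal, and by 0 of 26 collagen genes in either direction. The median log2 ratio was -0.02 for the collagen genes and -0.01 for all genes tested.

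**Figure D1:**
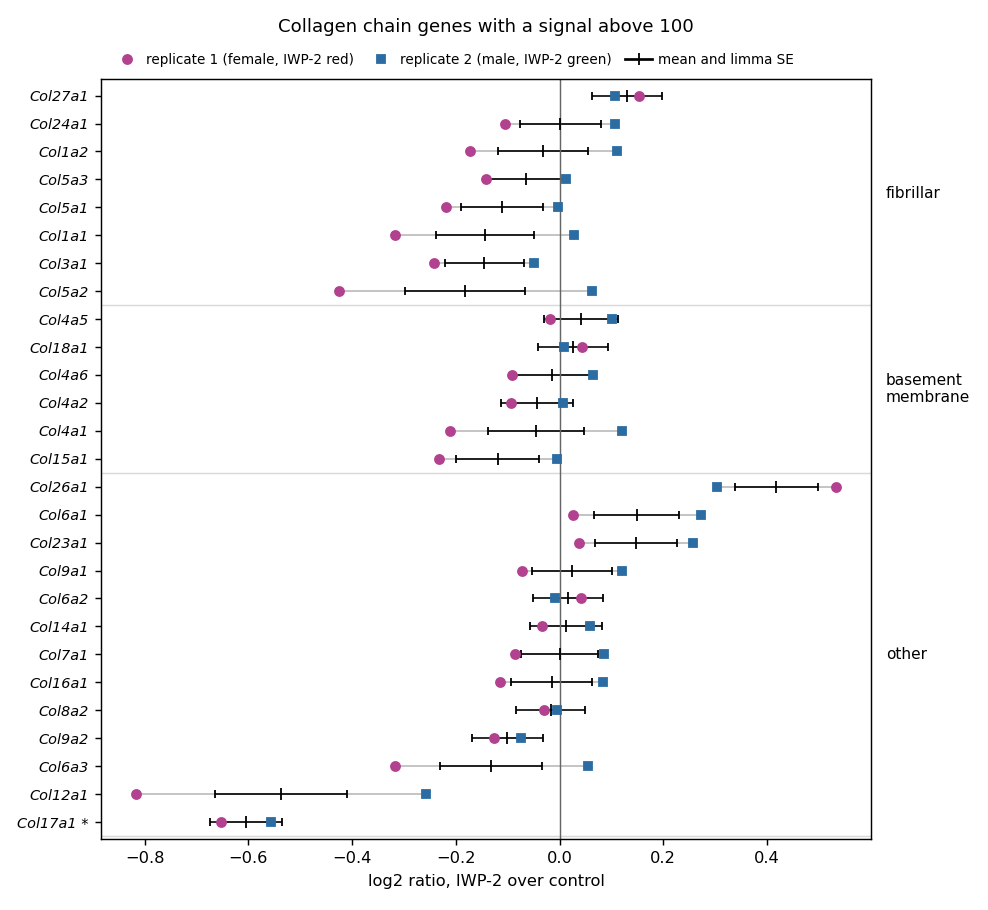
Log2 ratio of IWP-2 over control for the 27 collagen genes with a signal above 100, by class; circles are replicate 1, squares replicate 2, and the black tick with its bar is the mean and the limma standard error. *Col17a1*, marked with an asterisk for a limma adjusted p under 0.05, lies below 0 in both arrays, and for 23 of the 27 genes the circle lies to the left of the square.

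*Col17a1* encodes the transmembrane collagen XVII (BP180) of hemidesmosomes, the junctions that fasten basal epithelial cells to the basement membrane. Its signal was 1083 in the control and 688 with IWP-2 in replicate 1, and 1156 and 786 in replicate 2. Both treated signals lay below both control signals. The reduction was 1.57-fold and 1.47-fold, so that replicate 2 just missed the 1.5-fold criterion. The mean log2 ratio was -0.61 ± 0.07 (SE, n = 2; 95% interval -0.77 to -0.44; limma adjusted p = 0.0149). The array holds 1 probe for the gene (mm9 chr19:47720894-47720953, minus strand), and its spots gave standard errors of 0.013 and 0.0056 on the log2 scale. Where the test took in all genes well above background in every channel, in place of a signal limit, the adjusted p was 0.0753 with a floor of 1 and 0.482 with the floor of 15. The ratio itself was the same in both. With the floor of 15, 0 of all 19494 genes tested were called lower and 0 higher.

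In whole ureters, fewer cells of a type and less RNA per cell cannot be told apart. The urothelial markers did not move with *Col17a1*. Of 10, 8 lay above 0 in both arrays, where 25.7% of all genes did, and 0 lay below 0 in both, where 29.2% did. None was called, but 7 were higher and 0 lower at an unadjusted p under 0.05, beside 899 and 957 of all 14334 genes tested. Their median log2 ratio was 0.26. Their summed signal was 113031 in the control and 146450 with IWP-2 in replicate 1, and 137890 and 146321 in replicate 2. *Krt5* and *Trp63*, which mark the basal urothelial layer, had mean log2 ratios of 0.29 and 0.24 (limma adjusted p = 0.179 for both). Some other genes of the hemidesmosome and its anchoring were listed after *Col17a1* had been seen. Of these 7 genes, 0 were called (1 lower at an unadjusted p under 0.05), 4 lay below 0 and 2 above 0 in both arrays, and their median log2 ratio was -0.03. *Itga6* and *Itgb4*, which encode the integrin partner of collagen XVII, had mean log2 ratios of 0.11 and 0.11, *Dst* (BP230) -0.01 and *Plec* (plectin) -0.09. *Lama3* and *Lamb3*, which encode laminin chains of the epithelial basement membrane, had -0.10 and -0.20. The lowest mean of the list was that of *Lamb3*, and its difference from *Col17a1* was not tested.

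The stretch of 250 bases before the *Col17a1* start, as RefSeq gives it (GRCm38.p6, chr19:47692043-47692292, minus strand), is shown because it belongs to the called gene:
*Col17a1*: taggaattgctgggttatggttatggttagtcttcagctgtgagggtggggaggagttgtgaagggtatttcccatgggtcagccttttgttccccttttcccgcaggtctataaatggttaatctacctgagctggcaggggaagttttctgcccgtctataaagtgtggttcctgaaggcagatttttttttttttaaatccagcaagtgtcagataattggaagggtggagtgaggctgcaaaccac
The TCF/LEF factors that act downstream of canonical WNT signals bind sequences around CTTTG followed by 2 bases that are each A or T. The 4 strings of this form were searched on both strands in windows of 300 bases, from 250 before to 50 after each start. None was found in the *Col17a1* window. At least 1 was found in 7 of 38 windows (18.4%) of 35 collagen genes and in 16.9% of all 32851 windows. The 7 belong to *Col6a2*, *Col9a1*, *Col9a2*, *Col13a1*, *Col15a1*, *Col20a1* and *Col28a1*. Of these, *Col13a1*, *Col20a1* and *Col28a1* were too dim to test, and the other 4 were tested and not called. A match of letters is a description and not a binding site.

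*Col12a1* encodes a fibril-associated collagen that lies on the surface of type I fibrils. Its signal was 1557 in the control and 884 with IWP-2 in replicate 1, and 1076 and 899 in replicate 2. Both treated signals lay below both control signals, but the log2 ratios were -0.82 and -0.26, and the mean of -0.54 ± 0.13 had a limma adjusted p of 0.124. Over the settings tried, that adjusted p ranged from 0.0313 to 0.567. Its other probe gave the floor value in each channel. *Col14a1* and *Col16a1*, of the same fibril-associated family, had log2 ratios of -0.03 and 0.06, and of -0.12 and 0.08. *Col9a1* and *Col9a2*, chains of type IX, had means of 0.02 and -0.10. All 5 tested chains of this family were below 0 in replicate 1 and 2 of the 5 were below 0 in replicate 2.

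*Col26a1*, which encodes a secreted collagen with an EMI domain, had the highest ratio of the collagen genes tested. Its signal was 173 in the control and 251 with IWP-2 in replicate 1, and 162 and 200 in replicate 2. Both treated signals lay above both control signals. The mean log2 ratio was 0.42 ± 0.08 (limma adjusted p = 0.0741, 0.0411 to 0.485 over the settings). Its second probe gave 0.45 and 0.34, but the probes share 55 of 60 bases and are not independent.

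**Figure D2:**
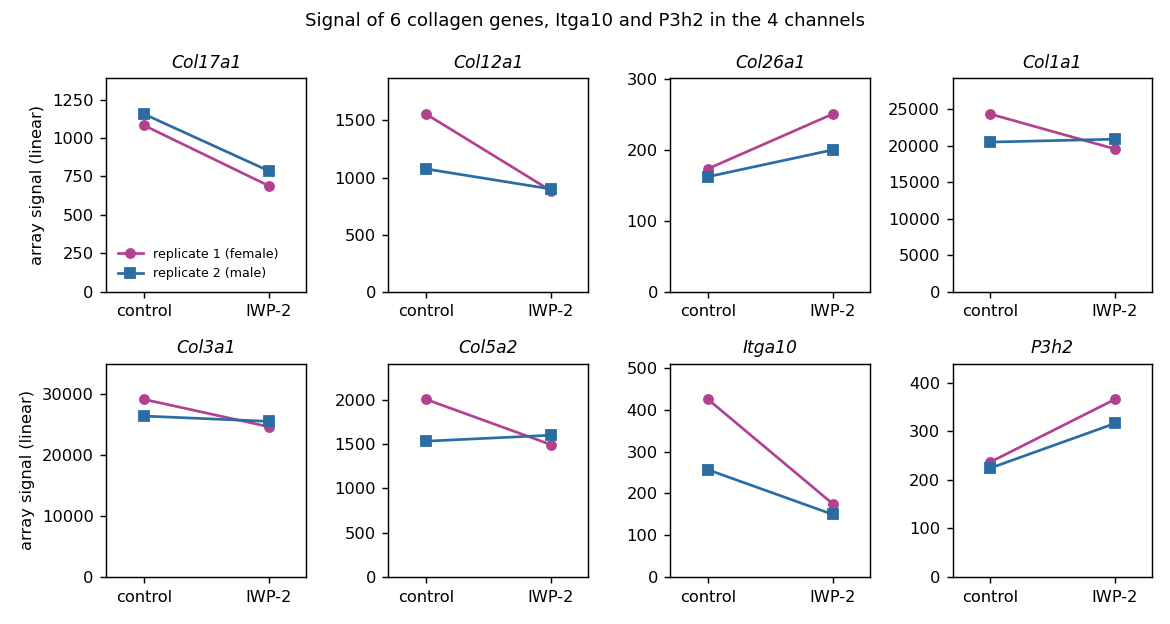
Array signal on a linear scale, from 0, in the control and IWP-2 channels of each array for 6 collagen genes, *Itga10* and *P3h2*; lines join the channels of 1 array (circles replicate 1, squares replicate 2). For *Col17a1*, *Col12a1* and *Itga10* both treated signals lie below both controls, for *Col26a1* and *P3h2* both lie above, and for *Col1a1* and *Col5a2* the lines run opposite ways.

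The 8 fibrillar chains tested had a median log2 ratio of -0.09, with a limma adjusted p between 0.543 and 0.999 and 0 at an unadjusted p under 0.05. *Col1a1* and *Col1a2* encode the chains of type I collagen. *Col1a1* gave 24342 in the control and 19545 with IWP-2 in replicate 1, and 20485 and 20885 in replicate 2. *Col1a2* gave 25295 and 22431, and 24045 and 25965. Both were lower with IWP-2 in replicate 1 and higher in replicate 2, and their signals overlapped between the conditions. *Col3a1*, which encodes the chain of the thinner type III fibrils, gave 29110 and 24619, and 26368 and 25494. It was the fibrillar gene whose treated signals both lay below both controls, and its log2 ratios were -0.24 and -0.05 (mean -0.15, 95% interval -0.33 to 0.04). *Col5a1* and *Col5a2*, whose type V chains start fibrils and limit their width, had log2 ratios of -0.22 and 0.00, and of -0.42 and 0.06. *Col5a2* had the lowest mean of the class, -0.18 ± 0.12. *Col27a1* was above 0 in both arrays (0.15 and 0.11). Over the class, the 95% intervals of the means reached from -0.46 to 0.29.

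The replicates differed in these genes. In replicate 1, 21 of the 27 collagen genes had a log2 ratio below 0 (77.8%, against 51.3% of all genes tested), and in replicate 2, 8 did (29.6%, against 52.1%). The collagen median was -0.10 in replicate 1 and 0.06 in replicate 2, whereas the medians of all genes tested were 0.00 and -0.01. By class, the medians in replicates 1 and 2 were -0.20 and 0.04 for fibrillar, -0.09 and 0.04 for basement membrane and -0.07 and 0.06 for other chains. Across both arrays, 7 collagen genes lay below 0 in both, where 29.2% of all genes did, and 5 lay above 0 in both, where 25.7% of all genes did. The ratio was lower in replicate 1 than in replicate 2 for 23 of 27 collagen genes, against 49.1% of all genes tested. This shift was not particular to collagen chains. It was seen in 37 of the 46 genes below that make, bind or cut collagen. Among cell markers, 8 of 8 smooth muscle, 7 of 7 LP and 5 of 5 endothelial genes had it. So did 4 of 6 fibroblast, 2 of 3 Schwann cell and 2 of 3 fat genes. By contrast, 1 of 10 urothelial and 1 of 4 macrophage markers had it. With 1 array per sex and dye orientation, the difference between the replicates was not tested.

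**Figure D3:**
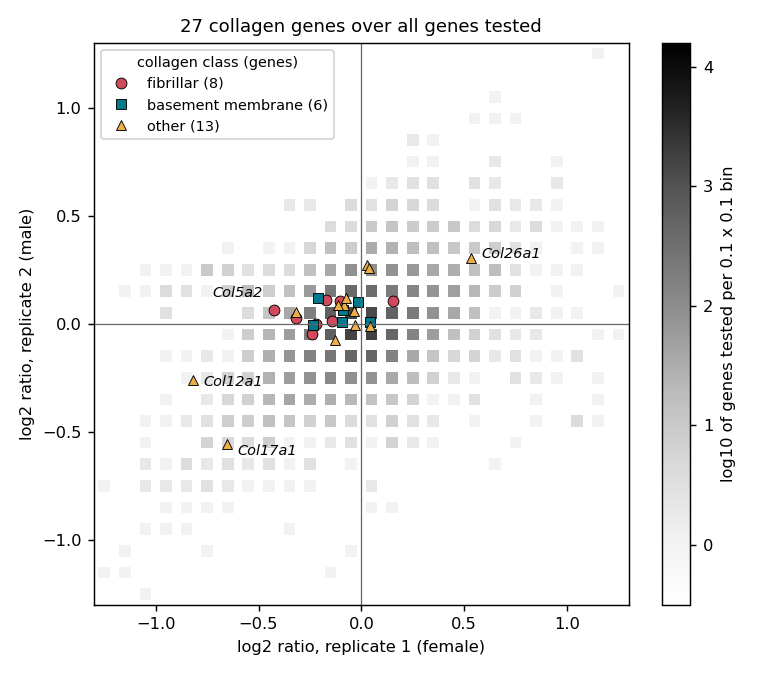
Log2 ratio in replicate 1 (horizontal) against replicate 2 (vertical) for the 27 collagen genes by class, over grey squares that give the number of genes tested in each bin of 0.1; genes beyond the axes are not drawn. The fibrillar and basement membrane chains lie mostly left of 0 and on or above the horizontal line, whereas *Col17a1* and *Col12a1* lie in the lower left and *Col26a1* in the upper right.

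Markers of the cells that make matrix moved as follows. The 7 LP markers are genes that the study followed up from its own arrays, so their direction here is a description and no independent evidence. Of these, 4 were called lower and 0 higher by limma, where 0.907% and 0.391% of all genes tested were. Their summed signal went from 30036 to 22795 in replicate 1 and from 23052 to 22295 in replicate 2. *Aldh1a2*, which makes retinoic acid in LP fibrocytes, had log2 ratios of -0.76 and -0.50 (limma adjusted p = 0.0246). *Foxf1*, a transcription factor of the ureteral mesenchyme, had 0.20 and 0.54 (limma adjusted p = 0.142), and *Bmp4* -0.10 and 0.18. Of 6 general fibroblast markers 0 were called, and their sum went from 70472 to 63242 and from 63340 to 62774. Of 8 smooth muscle markers 0 were called and 4 lay above 0 in both arrays, where 25.7% of all genes did. Their sum went from 86675 to 86192 and from 74672 to 85960. The fibroblast sum, like *Col1a1* and *Col3a1*, was thus lower with IWP-2 mainly in replicate 1. The part of cell composition in the collagen ratios was not tested.

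The 6 basement membrane chains tested had a median log2 ratio of -0.03, and 0 were called (limma adjusted p from 0.712 to 0.995, 0 at an unadjusted p under 0.05). *Col4a1* and *Col4a2* encode the chains of the type IV molecule found in nearly all basement membranes. *Col4a1* gave 15366 in the control and 13264 with IWP-2 in replicate 1, and 11773 and 12797 in replicate 2. *Col4a2* gave 4926 and 4616, and 4482 and 4504. The pair had almost the same mean log2 ratio, -0.05 and -0.04, with 95% intervals of -0.27 to 0.18 and -0.21 to 0.12. These genes lie head to head, and in RefSeq (GRCm38.p6) their start sites overlap by 22 bases at chr8:11312805-11312826, printed on the plus strand to show how close the starts are:
*Col4a1*/*Col4a2*: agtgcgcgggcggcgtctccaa
The head-to-head pair *Col4a5* and *Col4a6* on the X chromosome had means of 0.04 and -0.01. *Col4a3* and *Col4a4*, chains known from the kidney glomerulus, were too dim to test, with no signal above 30.3. *Col15a1* and *Col18a1* encode collagens with a cleaved endostatin-like end. *Col15a1* gave 311 and 264 in replicate 1 and 232 and 231 in replicate 2, and *Col18a1* gave 6188 and 6376, and 6620 and 6661. Their mean log2 ratios of -0.12 and 0.03 were not called. With type IV chains alone, the median of the class stayed at -0.03.

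Other neighbouring collagen genes were set side by side in the same way. *Col3a1* and *Col5a2*, adjacent in the genome, had means of -0.15 and -0.18. *Col6a1* and *Col6a2*, adjacent too and encoding chains of the beaded type VI filaments, had 0.15 and 0.02. They differed in replicate 2, where *Col6a1* went from 14698 to 17748 in signal and *Col6a2* went from 1280 to 1271. *Col6a3*, a further chain of the same molecule, gave 12866 and 10322, and 10259 and 10655, a log2 ratio of -0.32 in replicate 1 and 0.05 in replicate 2. None of the type VI chains was called. *Col23a1*, a transmembrane collagen like *Col17a1*, had log2 ratios of 0.04 and 0.26. *Col7a1*, the anchoring fibril that ties the epithelial basement membrane to the stroma, gave 429 and 405, and 409 and 434, a mean of 0.00 with a 95% interval of -0.18 to 0.18.

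The other 17 collagen genes were too dim to test. Of these, 6 (*Col6a5*, *Col9a3*, *Col10a1*, *Col19a1*, *Col22a1* and *Col28a1*) were at the floor of 15 in all 4 channels, 2 (*Col2a1* and *Col4a3*) in some of them, and 9 lay above it, with no signal over 67.2. At the limit, *Col24a1* was just inside, with signals of 98.4 and 91.5 in replicate 1 and 127 and 136 in replicate 2, and *Col20a1* was just outside, with 64.8 and 67.2, and 62.0 and 62.8. *Col2a1*, the cartilage collagen, gave 35.8 in the control and 18.3 with IWP-2 in replicate 1, and 19.5 and the floor value in replicate 2. It was called lower where dimmer genes were let into the test, with normexp background correction or with the background flag and a floor of 1. It was named after its values were seen. The cartilage markers *Acan*, *Comp*, *Matn1* and *Matn3* were at the floor in every channel. *Chad* and *Hapln1*, on the same marker list, lay above it but were too dim to test. *Chad* gave 51.9 and 70.7, and 40.0 and 57.2, so it was higher with IWP-2 in both arrays. *Hapln1* gave 79.5 and 56.3, and 58.9 and 59.9.

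The genes that make, bind or cut collagen were taken from a list of 56, of which 46 had a signal above 100. Of these, 1 was called lower and 1 higher by limma, where 0.907% and 0.391% of all genes were. Below 0 in both arrays were 24 of the 46, where 29.2% of all genes were, and their median log2 ratio was -0.06.

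*Itga10*, which encodes the α10 subunit of a collagen-binding integrin, fell. Its signal was 426 in the control and 175 with IWP-2 in replicate 1, and 257 and 150 in replicate 2. Both treated signals lay below both controls. The mean log2 ratio was -1.03 ± 0.12 (limma adjusted p = 0.0149), and it was the gene of this list that also met that 1.5-fold criterion. *Itgb1*, its β1 partner, had log2 ratios of 0.14 and 0.19 (limma adjusted p = 0.37). The median of the 7 collagen receptors tested was -0.02.

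*P3h2*, which encodes a prolyl 3-hydroxylase that modifies type IV and other collagens, rose. Its signal was 236 in the control and 366 with IWP-2 in replicate 1, and 224 and 316 in replicate 2. Both treated signals lay above both controls, and the mean log2 ratio was 0.56 ± 0.07 (limma adjusted p = 0.0211). None of the other 25 synthesis and crosslinking genes tested was called. As a group, 17 of the 26 lay below 0 in both arrays, where 29.2% of all genes did. Above 0 in both was 1, *P3h2*, where 25.7% of all genes were, and the group's median log2 ratio was -0.06. *P4ha1*, a catalytic subunit of the prolyl 4-hydroxylase that stabilises the helix, had log2 ratios of -0.29 and -0.17 (limma adjusted p = 0.218). With the background flag and a floor of 1 in place of the signal limit, the adjusted p was 0.085 for *Itga10* and 0.0934 for *P3h2*.

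Of the 4 collagen-cutting proteases and 9 fibril-binding proteins tested, 0 were called by limma. An unadjusted p under 0.05 was found for 2 and 4 of them, and for 1856 of all 14334 genes tested. *Mmp13*, a collagenase, gave 44.1 in the control and 132 with IWP-2 in replicate 1, and 287 and 362 in replicate 2. Its log2 ratios of 1.58 and 0.33 were both above 0 but lay far apart (limma adjusted p = 0.152, 0.0277 to 0.30 over the settings). Its signals overlapped between the conditions across the arrays, whose controls differed (44.1 and 287). *Mmp9*, a gelatinase, had 0.53 and 0.25 (limma adjusted p = 0.105). *Fn1*, which encodes fibronectin, had -0.49 and -0.26 (limma adjusted p = 0.102, 0.0496 to 0.222 over the settings), and *Aspn*, a small proteoglycan that binds type I collagen, had 0.21 and 0.55 (limma adjusted p = 0.132).

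**Figure D4:**
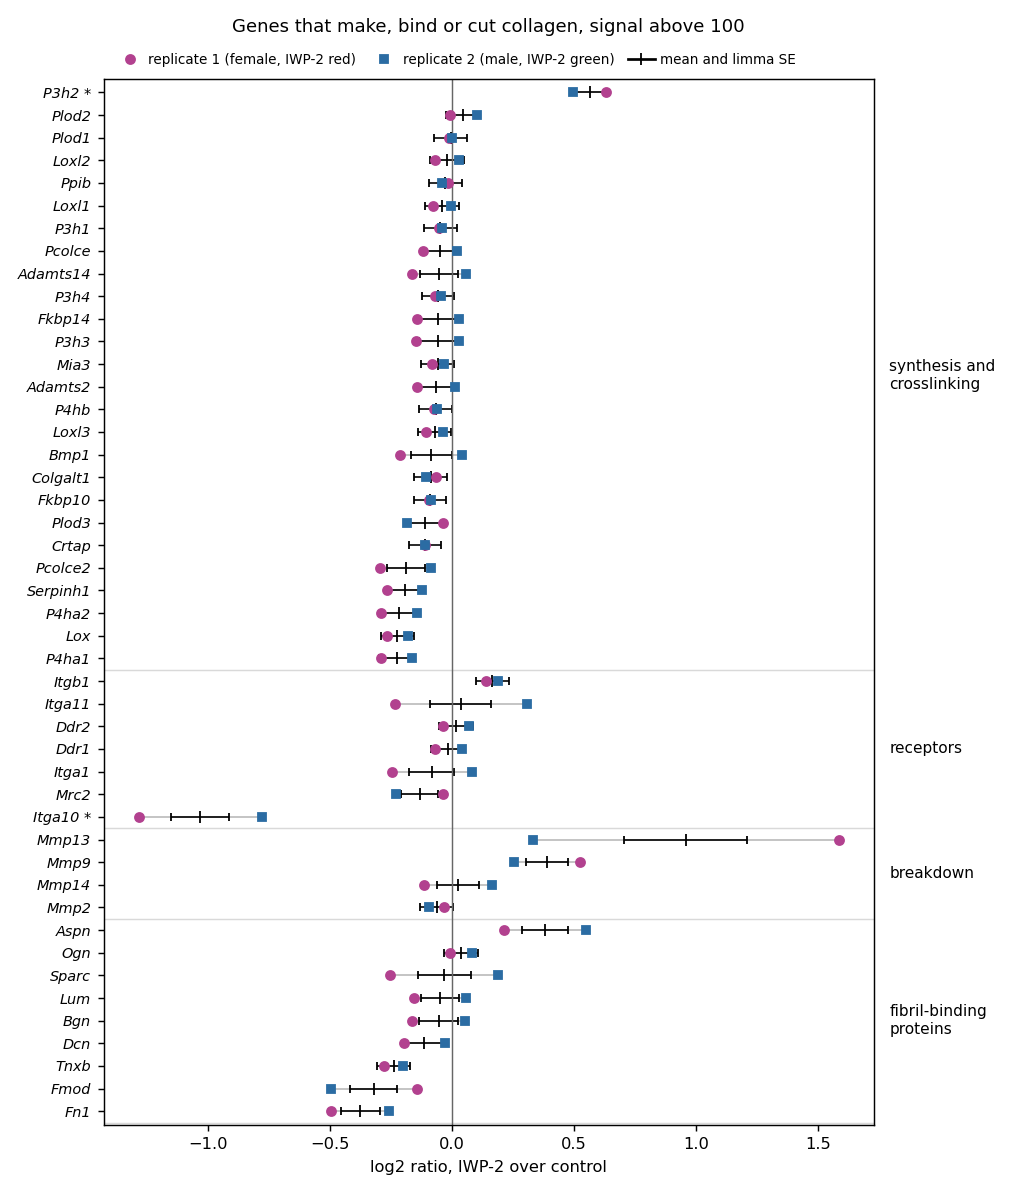
Log2 ratio of IWP-2 over control for the 46 genes of collagen synthesis, binding and breakdown with a signal above 100, by group; symbols as in the plot of collagen ratios by class. *P3h2* and *Itga10*, marked with asterisks for a limma adjusted p under 0.05, lie on opposite sides of 0, and most synthesis genes sit between -0.3 and 0.1.

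Of the 27 collagen genes tested, 11 had more than 1 probe. Among the further probes with a signal above 50, 7 of 10 had the same sign of the mean log2 ratio as the probe used, and the largest difference between the means was 0.12, for *Col6a2*.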

How the data were processed

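The members, gene lists and tests were chosen with earlier results of these data known. The deposited intensity values are processed spot signals, which per the file headers come from Feature Extraction 12.2.0.7 (10.7.3.1 in the submitters' processing notes) and are background-subtracted and dye-normalized. The files also hold mean and background intensities, used for normexp, and the authors' log10 ratio of red over green, used to check the direction. The deposited series table holds a score, a signed fold change with 1 decimal, used as an alternative. It had the direction of the values given here for 100% of genes beyond 0.2. The number of other per-sample columns was 0. Both arrays share a slide and a scan.

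The 17263 control spots of each array were left out, as were outlier-flagged spots (3.32% and 3.22%) among the other 157716. Of these others, 0 were saturated. A loess curve was fitted to each array with limma 3.58.1 under R 4.3.3. The 4 spots of each probe were then averaged, signals under 15 were set to 15, and log2 values were taken. The arrays were not normalized to each other in the main setting, so a comparison of signals across arrays is a description. Each gene was represented by its brightest probe, which does not use the ratio. The log2 ratios of the 2 arrays were fitted with lmFit and eBayes against 0, two-sided, with Benjamini-Hochberg adjustment over all genes tested. With 2 arrays an exact sign test cannot go below 0.5. The number of arrays limits the precision.

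Genes named are the called collagen genes, the 8 tested with the largest mean of 1 sign in both arrays, 15 chains set by name, and those at either side of the signal limit. For the 56 other genes they are the called ones and the 2 largest per group. *Col2a1*, the dimmest genes and the hemidesmosome list were added after their values were seen, as were further members given by value. Scripts were tested on simulated data. Names of genes follow the array annotation, and promoter sequences are from RefSeq (GRCm38.p6), which had no window here for *Col1a1*, *Col2a1*, *Col4a3*, *Col5a2*, *Col9a3*, *Col12a1*, *Col14a1*, *Col22a1* and *Col26a1*.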

Additional observations from a re-analysis of the deposited data

Results flagged for a closer look

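In 3 of the 27 collagen genes tested, the female and the male array moved to opposite sides of 0. Each did so by more than 0.1 and by more than 3 standard errors of its spots. The male minus female difference in log2 ratio was 0.28 for *Col1a2* (-0.17 in the female and 0.11 in the male array), 0.33 for *Col4a1* (-0.21 and 0.12) and 0.21 for *Col24a1* (-0.10 and 0.11). The difference was not tested, since there was 1 array per sex and the dyes were swapped with it.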

How the results depend on the processing

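*Col17a1* was called lower by limma in 9 of 10 alternative settings with a test. The exception was the background flag in place of the signal limit, at the floor of 15. In that setting, 0 of all 19494 genes tested were called lower and 0 higher, so the absence of a call is not particular to collagens. Of the collagen genes, 5 had an unadjusted p under 0.05, and 1372 of the 19494 genes had both ratios at exactly 0. With the flag and a floor of 1, a setting chosen after seeing the data, *Col17a1* was not called either (limma adjusted p = 0.0753). There, 55 of all 19635 genes tested were called lower and 7 higher. Of the collagen genes, 1 was called lower (*Col2a1*), and 0 genes of the synthesis, binding and breakdown list were called lower and 0 higher. With normexp correction, which let in 40 collagen genes, 3 collagen genes were called lower (*Col2a1*, *Col12a1* and *Col17a1*) and 1 higher (*Col26a1*). From that list, 2 genes were called lower (*Itga10* and *Fn1*) and 2 higher (*P3h2* and *Mmp13*). Calls rose over the whole array with this correction, to 299 lower and 214 higher of 19780 genes tested, beside 130 and 56 of 14334 in the main setting. In the deposited table, rounded to 1 decimal, *Col17a1* was lower by 1.6-fold and by exactly 1.5-fold, so that 1 collagen gene was lower by at least 1.5-fold in both arrays and 0 by more. Without each replicate in turn, between 0 and 2 were lower by at least 1.5-fold. The mean log2 ratio changed sign for *Col24a1* without further loess (-0.0036), for *Col1a2* (0.013) and *Col4a2* (0.00070) with median centring, which moved the median of all genes to 0.04, and for *Col6a2* with the mean of all probes (-0.047). The causes were not tested. The other alternatives moved no class median by more than its spread between the arrays. With 2 arrays, the limma SE of the collagen means lay between 0.07 and 0.13 on the log2 scale, which sets the size of change that could be called.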

Other observations

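Further probes are described in the array files as collagen chains but carry other names and were not counted as members. TC1681647 and TC1586596 were at the floor of 15 in all 4 channels. TC1608815 gave 19.9 and 20.3, and 21.4 and 21.9, and LOC102640586 gave 17.4 and 17.0, and 17.2 and 15.1, in the control and IWP-2 channels of replicates 1 and 2.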
